A study of Arabidopsis thaliana with 12 samples.

Results

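A set of 96 genes, of 13356 measured through probe sets that name a single gene, stood at least 2-fold higher both in an undamaged leaf after another leaf was wounded and in a leaf that received an electric current. The members were chosen by these 2 changes themselves: the mean log2 value of wounded minus unwounded leaf 13 was at least 1, and so was that of current minus no-current leaf 8. Altogether 114 genes met both cuts, and 18 of them were left out by name, among them JMT, OPCL1, ORA47 and STZ. No plastid-encoded gene met both cuts. Because the wound and current changes chose the genes, they are given below as descriptions, without a test.

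The plants were Arabidopsis thaliana accession Col-0, grown on soil for 5 weeks, and every group came from this 1 genotype with no transgene or mutation named. Leaf 13 was taken from unwounded plants, or 1 h after the apical 40% of leaf 8 had been wounded. The treatment label of these 3 arrays reads none, and their source and protocol labels give the wound. The blade of leaf 8 was taken from plants with a platinum wire in the petiole of that leaf and no current, or 1 h after a current of 40 µA had been passed into the petiole for 10 s. Each group had 3 Affymetrix ATH1 arrays, 12 in all, and values are log2 RMA expression values, so that a difference of 1 is a doubling. Nothing in the labels says whether the replicates were separate plants or pools, so that SEs and p-values reflect how far these samples lay apart, and this scatter may be technical. Each control belongs to 1 stimulus, and the wounded leaf 8 itself was not analysed here.

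In Arabidopsis, damage to a leaf starts a wave of membrane depolarisation that travels through the veins into connected leaves and depends on glutamate receptor-like channels. Leaves reached by it make jasmonic acid, whose isoleucine conjugate binds the receptor COI1, so that JAZ repressors are degraded and MYC transcription factors become free to act. Injected current is used as a way to impose a voltage change on a leaf without crushing it, and the comparison asks which transcripts rise after an electrical stimulus alone.

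Photosynthesis genes, of which 3 of 6 listed were measured, stood high throughout, and none of these lay below 12.35 on any array. Because this held in every group, it points to green tissue only. It cannot tell the leaf positions apart, or a blade from a whole leaf. Within a group, pairwise correlations between arrays lay between 0.991 and 0.996 over all probe sets. Over the 96 genes, 2 arrays stood apart from the others of their group. The second current array was the highest of the 3 current arrays for 90 genes, by a median of 0.60 over the next. The median rise over the no-current mean was 1.13, 1.91 and 1.23 on current arrays 1, 2 and 3, while over all genes these medians were 0.00, -0.03 and -0.02. The first wounded array was the lowest of its group for 82 genes, with a median rise of 2.25 against 2.66 and 2.79 on the other wounded arrays. Without the second current array 70 genes met the rule, 69 of them among the 96, and the median current rise of the 96 was 1.16 in place of 1.40. Without the first wounded array 100 genes met it, with all 96 among them, and the median wound rise was 2.72 in place of 2.62.

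**Figure D1:**
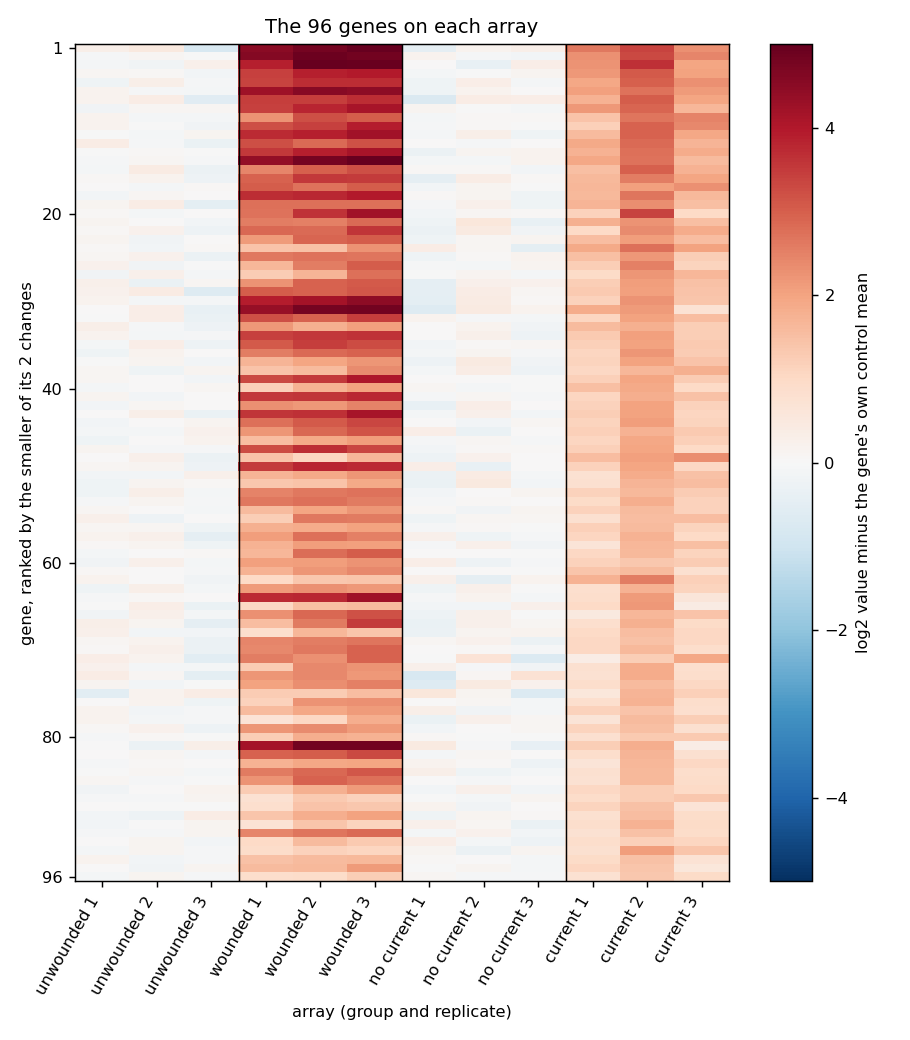
Each of the 96 genes (rows, ranked by the smaller of the wound and current changes) on each of the 12 arrays (columns), as log2 value minus the mean of the gene's own control group, with 3 arrays per group. Current array 2 is darker than current arrays 1 and 3 down most of the map, and was the highest of its group for 90 genes.

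Both responses had the same direction by construction, and their sizes differed. Over the 96 genes the wound change had a median of 2.62, or 6.17-fold, with an interquartile range of 1.88 to 3.35 and a highest value of 4.92. The current change had a median of 1.40, or 2.65-fold, a range of 1.18 to 1.76 and a highest value of 2.77. Over all 13356 genes the medians were -0.03 and -0.02. A rise of at least 1 was met by 337 genes after wounding (2.52% of all) and by 120 after current (0.898%), and 114 (0.854%) met both, so nearly every gene past the current cut was also past the wound cut, and most past the wound cut were not past the current cut. The wounded arrays all lay above the unwounded arrays for 96 of the 96 genes, where 10.6% of all genes had this order, and the current arrays all lay above the no-current arrays for 94, where 7.34% did. The 2 exceptions after current were JAL23 and AT4G36010. Limma called 96 of the 96 genes higher after wounding (5.81% of all genes) and 90 after current (2.38%), and the 6 not called after current were JAL23, JAL34, MSRB9, AT3G28220, AT4G15660 and AT4G36010. These counts follow from the choice of the genes and support nothing further.

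**Figure D2:**
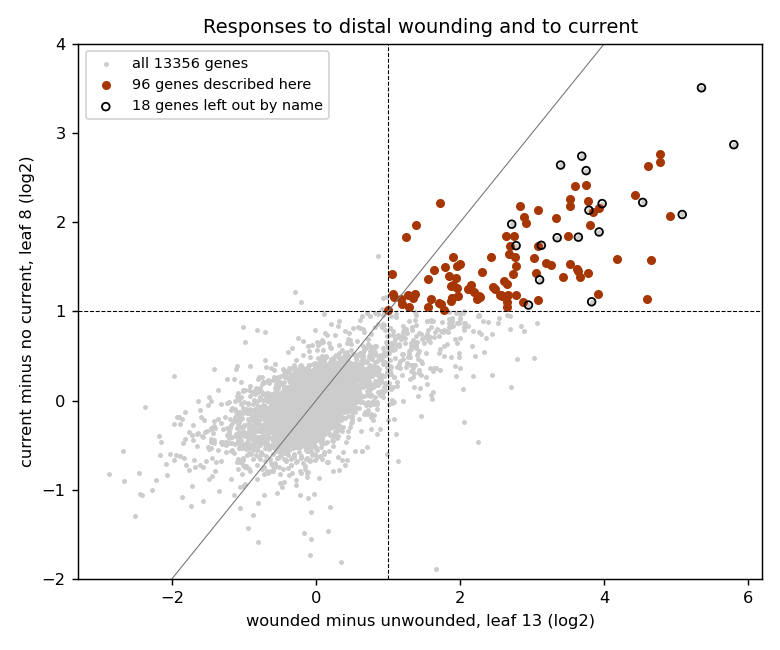
Log2 change after distal wounding (horizontal) against log2 change after current (vertical) for all 13356 genes, with the 96 genes described here filled and the 18 left out by name as open circles. Dashed lines mark the cut of 1 in each direction and the solid line equal changes: 89 of the 96 genes lie below it.

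Of the 96 genes, 86 carry only a locus identifier in the reference table (RefSeq, TAIR10.1), as do 88.3% of the genes measured here, and their roles are not given here. The 10 with a symbol, and 1 more with a named synonym, are described first, by role where one is given. IAA18 encodes an Aux/IAA protein, a repressor of auxin responses. Its values were 6.44, 6.36 and 6.26 in unwounded and 7.92, 8.31 and 8.55 in wounded leaf 13. In leaf 8 they were 6.74, 6.49 and 6.79 without current and 7.83, 8.25 and 7.84 with it. All treated arrays lay above all control arrays, and the changes were 1.91 (SE 0.15) and 1.30 (SE 0.15). SRC2, named after a soybean gene regulated by cold, was among the most abundant of the set before treatment, at 8.40 ± 0.14 (mean ± SD, n = 3) in unwounded leaf 13 and 8.90 ± 0.31 in no-current leaf 8. It reached 9.40, 9.99 and 9.71 after wounding and 9.80, 10.09 and 9.97 after current, changes of 1.30 and 1.05 that put it near the cut on both sides.

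AT5G52050 carries the synonym DTX50 and encodes a detoxification efflux carrier of the MATE type, which moves small molecules out of the cell. The gene stood at 4.49, 4.63 and 4.69 in unwounded and 5.78, 6.33 and 6.63 in wounded leaf 13. In leaf 8 it stood at 5.25, 5.07 and 5.14 and after current at 6.65, 7.04 and 6.16. The changes, 1.65 (SE 0.21) and 1.46 (SE 0.21), differed by 0.18 (SE 0.29), less than the SE of that difference.

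Enzymes that repair oxidised methionine were represented by MSRB6 and MSRB9, methionine sulfoxide reductases of the B type. MSRB9 was low in both controls, at 4.32, 4.19 and 3.60 and 3.93, 4.49 and 4.33. After wounding its arrays spread widely, at 5.56, 6.65 and 7.54, and after current they lay at 5.10, 6.02 and 5.20, for changes of 2.55 (SE 0.38) and 1.19 (SE 0.38). MSRB6 was abundant in leaf 13 from the start, at 9.41, 9.27 and 9.07, and stood at 10.26, 10.58 and 10.64 after wounding. In leaf 8 it started far lower, at 6.99, 6.28 and 6.91, and reached 8.45, 9.31 and 7.92, so that the arrays after current lay below those of unwounded leaf 13 except for array 2, which lay among them. MSRB6 was 1 of the few genes whose change after current, 1.83 (SE 0.27), was larger than that after wounding, 1.24 (SE 0.27). The other 2 measured members of the 9 listed for this family, MSRB3 and MSRB5, were at 0.09 and 0.07 after wounding and 0.06 and -0.38 after current. Limma called 0 of them in either comparison, with 0 at an unadjusted p under 0.05, where 5.81% and 8.42% of all genes were called higher and lower after wounding and 2.38% and 1.58% after current. MSRB9 was itself not called after current.

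Enzymes of the cell wall came next. CCR2 encodes a cinnamoyl-CoA reductase, an enzyme of the lignin branch. It lay near the lower end of the scale in both controls, at 3.13, 2.59 and 2.87 and 2.97, 3.27 and 3.28. Wounded leaf 13 gave 5.01 ± 0.79 (mean ± SD, n = 3), with the first array well below the others at 5.49 and 5.44, and current gave 3.98, 4.72 and 4.72, for changes of 2.15 (SE 0.30) and 1.30 (SE 0.30). GAUT15, of a family of galacturonosyltransferases that take part in pectin synthesis, had the smallest change that met the rule, 1.00 (SE 0.14) after wounding and 1.01 (SE 0.14) after current. Its values went from 5.64, 5.85 and 5.68 to 6.59, 6.64 and 6.94 in leaf 13. In leaf 8 they went from 6.55, 6.39 and 6.39 to 7.19, 7.78 and 7.39, so that the wired leaves without current were close to the wounded leaves. HOS3-1 is not counted among the wall enzymes and is named for a mutant with high expression of osmotically responsive genes. It went from 5.20 ± 0.06 to 7.32 ± 0.35 after wounding. In leaf 8 it went from 5.27 ± 0.02 to 6.51 ± 0.41, for changes of 2.11 (SE 0.18) and 1.25 (SE 0.18).

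JAL23 and JAL34 encode jacalin-related lectins, proteins that bind sugars. JAL34 went from 3.97, 4.30 and 3.66 to 5.01, 5.48 and 5.58 in leaf 13 and from 4.41, 4.39 and 4.78 to 5.52, 6.70 and 4.93 in leaf 8, where array 2 stood far above the other current arrays. Its changes were 1.38 (SE 0.32) and 1.19 (SE 0.32). JAL23 went from 3.61, 3.49 and 2.77 to 5.83, 5.56 and 6.22 after wounding, without overlap. In leaf 8 its groups overlapped, with 4.62, 5.34 and 3.96 before and 5.00, 5.87 and 6.58 after current, and the change of 1.18 (SE 0.37) had an SE among the largest of the set. Relatives were found by a JAL name only, so any lectin gene known here by locus identifier alone was not counted. The other 2 measured lectins of 7 with such a name, JAL22 and JAL33, were at -0.02 and 0.01 after wounding and at 0.00 and 0.02 after current. Limma called 0 of them in either comparison, with 0 at an unadjusted p under 0.05, and it did not call JAL23 or JAL34 after current either. Of all genes 5.81% and 8.42% were called higher and lower after wounding and 2.38% and 1.58% after current. ZW9, which is given no role here, was already well expressed, at 7.26, 7.01 and 7.11 in unwounded leaf 13 and 7.13, 8.23 and 8.00 in no-current leaf 8. The treated arrays stood at 9.14, 9.44 and 9.65 after wounding and 8.66, 9.39 and 8.82 after current, for changes of 2.28 and 1.17.

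**Figure D3:**
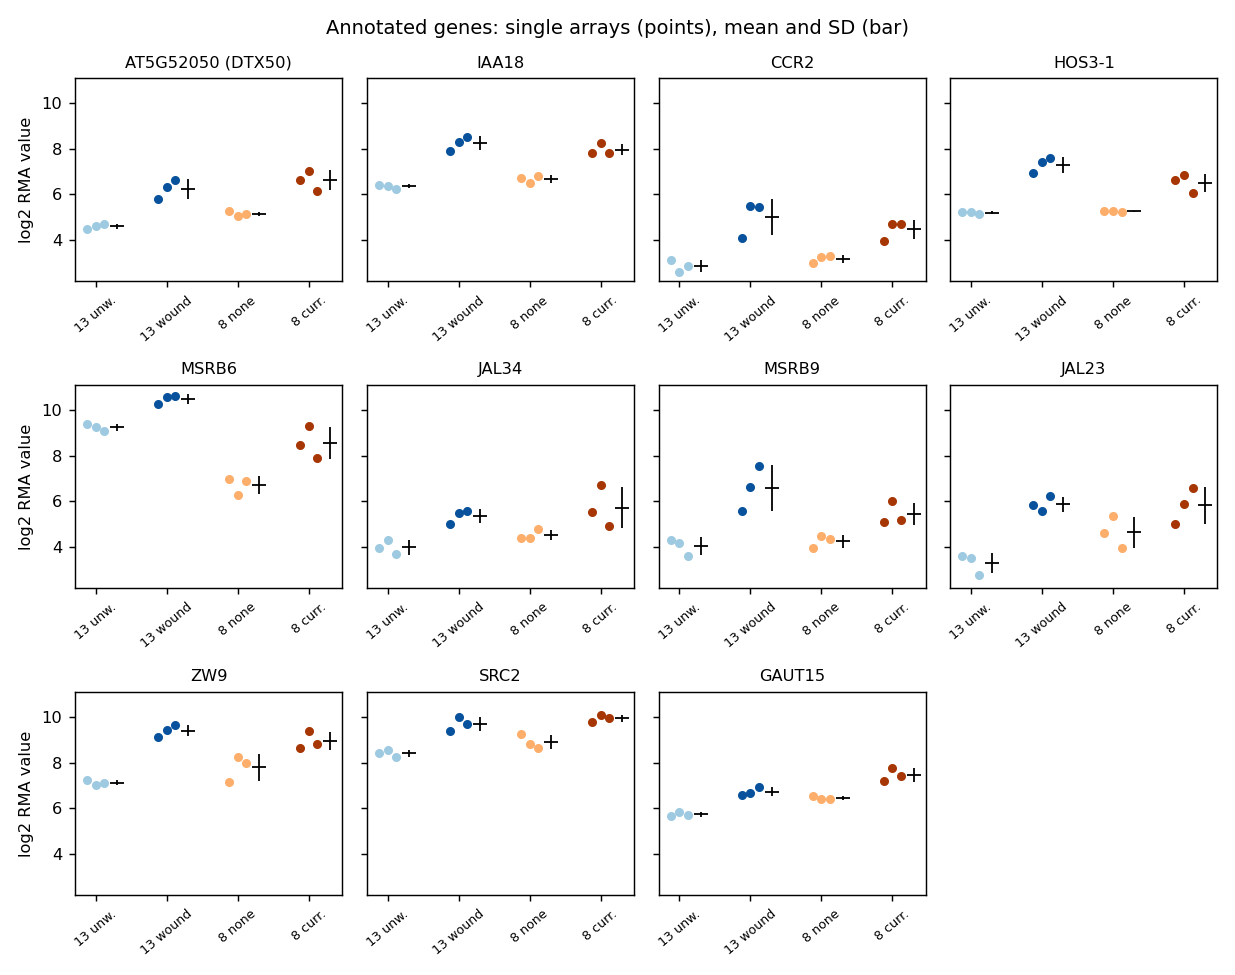
Log2 RMA values of the 11 genes with a symbol or named synonym on each array (points), with the mean and SD of each group beside them, for unwounded and wounded leaf 13 and for leaf 8 without and with current. MSRB6 is the 1 gene of the 11 whose no-current arrays all lie below its unwounded arrays.

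The 12 genes with the highest smaller change all stood at least 4-fold higher after both stimuli, and are all known here by locus identifier alone. AT3G51450, listed as a strictosidine synthase-like gene, had values of 6.83, 7.05 and 5.76 in unwounded and 11.08, 11.34 and 11.55 in wounded leaf 13. In leaf 8 it went from 7.07, 7.69 and 7.82 to 10.18, 10.91 and 9.80. Its changes of 4.77 (SE 0.32) and 2.77 (SE 0.32) are 27.3-fold and 6.83-fold, and the latter is the largest current change of the 96. AT5G56980 was even between arrays, at 4.65, 4.80 and 4.72 in unwounded and 9.32, 9.62 and 9.56 in wounded leaf 13. It started at the same level in leaf 8, 4.84, 4.60 and 4.51, and stopped lower there, at 6.94, 7.96 and 7.08, for changes of 4.78 (SE 0.20) and 2.68 (SE 0.20).

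AT2G22880, listed as VQ12 of the VQ motif family, whose members bind WRKY transcription factors, was near the lower end of the scale in unwounded leaf 13, at 3.01, 2.91 and 3.36, and reached 6.99, 8.09 and 8.04 after wounding. Its values in leaf 8 were 4.17, 3.78 and 4.47 without and 6.39, 7.80 and 6.12 with current. The changes were 4.61 (SE 0.37) and 2.63 (SE 0.37), and current array 2 was far above the other current arrays. AT5G54170 was well expressed in all groups and went from 6.46, 6.41 and 6.21 to 9.76, 10.26 and 10.32 and from 7.20, 7.28 and 7.44 to 9.47, 10.37 and 9.32. AT2G42760 went from 6.22, 6.70 and 6.35 to 9.80, 10.11 and 10.13 in leaf 13, and in leaf 8 from 6.37, 6.94 and 6.49 to 8.55, 9.59 and 8.89. In both genes every treated array lay far above every control array.

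The other 7 of these 12 had wound changes between 2.83 and 4.43 and current changes between 2.14 and 2.31. AT1G61890 changed by 4.43 and 2.31, AT2G39420 by 3.53 and 2.26, and AT1G52720 by 3.78 and 2.24, the wound change first. AT3G19970 had the most equal pair, 2.83 and 2.18, and ended at 6.35 ± 0.50 and 6.28 ± 0.67, so the spread between arrays exceeded the difference of the final levels. AT5G38130 and AT1G06620 changed by 3.53 and 2.18 and by 3.93 and 2.17. AT4G24350 began at 6.96 ± 0.36 in leaf 13 and 5.68 ± 0.04 in leaf 8, and the gap was wider after treatment, at 10.05 ± 0.21 and 7.81 ± 0.60.

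The wound response was the larger for 89 of the 96 genes, and the median ratio of the current to the wound change on the log2 scale was 59.2%, with an interquartile range of 50.1% to 70.0%. The wound change exceeded the current change by at least 1 for 50 genes and by at least 2 for 14, and both were within 0.5 of each other for 18. AT4G36010 had the widest gap, 3.46 (SE 0.44). It went from 5.52, 5.25 and 5.81 to 9.68, 10.34 and 10.35 after wounding, while the leaf 8 groups overlapped, with 7.96, 7.45 and 7.10 before and 8.74, 9.32 and 7.86 after current. AT4G17470 (4.66 and 1.58), AT2G30830 (4.92 and 2.07), AT1G25500 (3.91 and 1.19) and AT4G02360 (4.18 and 1.59) came next, the wound change first. AT2G30830 had the largest wound change of the set and started alike in both leaves, at 3.09 ± 0.08 and 3.15 ± 0.15, with final levels of 8.01 ± 0.60 and 5.22 ± 0.57.

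In 7 genes the current change was the larger, MSRB6 described above among them. The difference of wound minus current was -0.59 (SE 0.38) for MSRB6, -0.58 (SE 0.29) for AT5G43180 and -0.50 (SE 0.36) for AT1G10585. It was -0.37 (SE 0.32) for AT1G15010, -0.12 (SE 0.31) for AT2G44830, -0.07 (SE 0.20) for AT2G47950 and -0.01 (SE 0.20) for GAUT15. AT1G10585 was close to the lowest values of the array in unwounded leaf 13, at 2.50, 2.28 and 2.48, and stood at 3.85, 3.88 and 4.68 after wounding. The no-current leaves, at 4.88, 4.63 and 4.03, were already about there. With current it reached 6.41, 7.25 and 6.54. AT5G43180 went from 3.32, 3.55 and 3.01 to 4.72, 4.38 and 4.94 and from 3.82, 4.32 and 4.12 to 5.61, 6.14 and 6.42. For the last 3 of the 7 the difference was smaller than its SE.

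The remaining genes fall below the 12 strongest in their smaller change. Those not described in other paragraphs are given here by the size of the wound change, so the lists are not complete for their ranges. Genes described with the control leaves below include AT1G66760 (3.85 and 2.12), AT1G52000 (3.02 and 1.60), AT4G20860 (2.76 and 1.61), AT5G54300 (2.74 and 1.42) and AT1G06000 (2.64 and 1.84), the wound change first. A wound change of at least 3 was found in AT5G44050, AT4G08170, AT5G12340, AT2G22200, AT4G29700, AT3G50280, AT5G66650, AT5G14700, AT1G14130, AT1G75230, AT1G75960 and AT3G55640, with wound changes from 3.08 to 3.80 and current changes from 1.13 to 2.05. AT4G08170 had the highest wound change of this group, with 5.89, 6.11 and 6.04 in unwounded, 9.68, 9.79 and 9.98 in wounded, 6.02, 6.10 and 5.73 in no-current and 7.57, 8.62 and 7.58 in current leaves. AT5G12340 had the largest SE of the 96 genes: its current arrays read 3.84, 6.09 and 3.67 and its no-current arrays 2.55, 2.77 and 2.75, for a current change of 1.84 (SE 0.48), and the groups did not overlap.

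Wound changes from 2.14 to 2.92 were found in AT5G38710, AT1G54020, AT1G31550, AT5G19110, AT5G02940, AT5G52410, AT5G01850, AT3G56200, AT5G53050, AT1G19380, AT3G48450, AT4G32800, AT1G69360, AT1G49450, AT5G13200, AT3G28220, AT2G43530, AT1G32920, AT5G53750 and AT1G61065, with current changes from 1.05 to 2.06. AT5G38710 had the highest current change of these. It went from 3.95, 4.43 and 3.73 to 6.48, 7.01 and 7.28 in leaf 13 and from 5.23, 5.23 and 5.01 to 6.65, 8.13 and 6.88 in leaf 8, so the wired leaves started above the unwounded ones and ended close to the wounded ones. AT1G61065 had the lowest, with 5.55, 5.87 and 5.53 before and 6.43, 7.11 and 6.57 after current.

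Wound changes from 1.28 to 2.00 were found in AT5G59760, AT1G23850, AT2G34810, AT2G46520, AT3G19030, AT2G04400, AT1G69610, AT5G44350, AT4G29780, AT4G15660, AT3G57450, AT4G35110, AT4G15260 and AT3G50910, with current changes from 1.08 to 1.61. AT5G44350 had the lowest wound change of these, from 2.53, 2.15 and 2.16 to 3.11, 3.92 and 3.67, and a like current change, from 2.22, 2.67 and 2.68 to 3.51, 4.06 and 3.57. AT5G59760 had the highest current change, from 3.41, 3.56 and 3.34 to 4.41, 5.64 and 5.08, after a wound change from 2.35, 2.77 and 2.42 to 4.42 ± 0.78 (mean ± SD, n = 3).

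Genes just inside the cut were separated from genes just outside it by little. The 5 last genes inside, GAUT15, AT4G24830, AT1G54050, AT1G15010 and SRC2, had a smaller change of 1.00, 1.01, 1.05, 1.05 and 1.05. The first outside was SWEET16, a carrier of sugars, whose current change was 0.999 after a wound change of 2.06. It went from 4.59, 4.48 and 4.45 to 6.47, 6.79 and 6.42 and from 4.25, 4.15 and 4.52 to 5.16, 5.82 and 4.93, without overlap on either side. AT2G22080 (1.85 and 0.99), AT5G59740 (1.38 and 0.99), TBL37 (2.04 and 0.98) and AT1G74360 (0.98 and 1.16) followed, the wound change first. With 1 array left out in turn, 66 of the 96 genes met the rule in all 12 settings and 30 missed it at least once. GAUT15 met it in 6 of the 12, AT4G27657 and AT4G24830 in 9 and the others in 10 or 11.

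**Figure D4:**
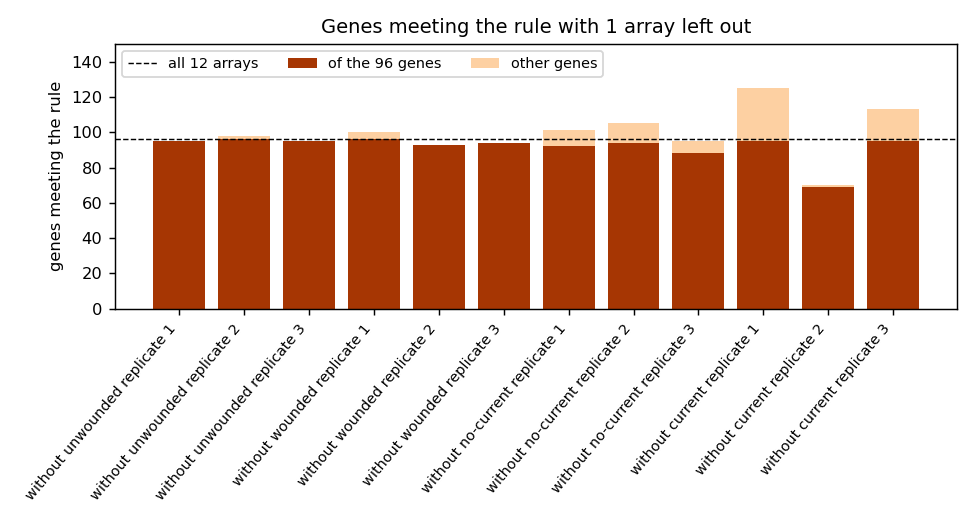
Number of genes meeting the rule when 1 of the 12 arrays is left out, split into genes among the 96 and other genes, with the count from all 12 arrays as a dashed line. The count is lowest, 70, without current replicate 2 and highest, 125, without current replicate 1.

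Levels before treatment covered most of the range of the arrays. Unwounded means ran from 2.28 to 9.25 with a median of 4.80, against a median of 4.31 over all genes, and no-current means from 2.53 to 8.96 with a median of 5.10. Altogether 11 genes had an unwounded mean below 3, near the lowest values of the arrays. After treatment the medians were 7.51 in wounded leaf 13 and 6.61 in leaf 8 after current. Means of at least 10 were reached by 13 genes after wounding and by 3 after current. Final levels were lower after current than after wounding for 77 genes and higher for 19. The median difference was -0.72, against -0.02 over all genes. Leaf position, wire and experiment differ between these 2 groups, as may the part harvested, and cannot be told apart from the stimulus. No gene of the 96 was read through more than 1 probe set, where 146 of all 13356 genes were. None was read through a probe set whose name marks probes shared between transcripts, where 2.09% of all probe sets used have such a name. Both are rare among all genes, so these counts do not set the 96 apart.

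The 2 control groups offer a comparison that was no part of the rule, namely wired leaf 8 without current against unwounded leaf 13. Its 6 arrays did serve as controls in the rule, so it is not fully independent of it. Leaf position, wire and experiment differ together and cannot be told apart. The part harvested, given as the blade for leaf 8, may differ with them. Many of the 96 genes were already higher in the wired leaf. Limma called 36 of them higher and 8 lower (two-sided, Benjamini-Hochberg adjusted over all 13356 genes), that is 37.5% and 8.33% of the set, where 16.6% and 16.2% of all genes were called. The share called higher was thus above the background and the share called lower below it. The set had a median difference of 0.33, an interquartile range of 0.03 to 0.90, and 73 genes above 0, while the median of all genes was -0.02. The no-current arrays all lay above the unwounded arrays for 49 genes (51.0%, against 22.1% of all) and all below them for 11 (11.5%, against 23.3%). The count of higher calls ran from 25 to 49 and that of lower calls from 6 to 11 over all alternatives run. The background also moved. Without the dimmest 50% of genes, 85 of the set were tested and 37 were called higher, where 29.8% of all genes kept were. In that setting 9 were called lower, where 26.5% of all genes kept were.

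AT2G28400 had the largest difference. It read 3.68, 3.35 and 3.70 in unwounded and 6.14, 6.61 and 5.99 in no-current leaves, 2.67 (SE 0.24, limma adjusted p = 2.03e-06) apart. The wired leaves without current were thus above its wounded leaf 13, 5.00, 5.14 and 5.94, and the leaves after current stood at 7.28, 7.92 and 8.02. AT5G54300 was higher by 2.12 (SE 0.22, limma adjusted p = 6.69e-06), AT1G10585 by 2.09 (SE 0.25, limma adjusted p = 2.24e-05) and AT4G36010 by 1.98 (SE 0.31, limma adjusted p = 1.84e-04). AT1G52000 followed at 1.89, AT1G15010 at 1.57, AT4G20860 at 1.43 and AT5G19875 at 1.37. In 3 genes the no-current mean equalled or exceeded the wounded mean: AT2G28400, AT1G10585 and AT1G15010, a group picked out after its values were seen. JAL23 was higher by 1.35 (SE 0.37, limma adjusted p = 0.0112), but the call was lost when unwounded array 3 or no-current array 2 was dropped (limma adjusted p = 0.0633 and 0.0628), and under a robust trend (0.0523).

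MSRB6 went the other way and was lower in the wired leaf, at -2.52 (SE 0.27, limma adjusted p = 7.64e-06), from 9.25 ± 0.17 to 6.73 ± 0.39. Of the other 7 called lower, AT4G24350 was at -1.28, AT1G66760 at -1.19, AT1G06000 at -1.13, AT3G17120 at -1.11 and AT4G24830 at -1.01. AT4G18950 and AT1G54050 were at -0.57 and -0.50, and their calls ended without single arrays: that of AT4G18950 without unwounded replicate 1, 2 or 3 or no-current replicate 2 or 3 (limma adjusted p from 0.0532 to 0.0931), and that of AT1G54050 without unwounded replicate 1 or no-current replicate 3 (0.0834 and 0.0596). Among the 52 genes not called, differences ran from -0.52 to 0.58, and they included IAA18 at 0.32, CCR2 at 0.31, HOS3-1 at 0.06, MSRB9 at 0.22, JAL34 at 0.55 and AT5G52050 at 0.55.

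Markers of other cell types moved in the same comparison of control leaves. The 2 measured guard cell genes of 6, FMA and AT1G22690, were called lower in the wired leaf, at -0.99 and -2.36, and the log2 of their summed level ran from 8.82 to 9.09 in unwounded and from 6.50 to 7.14 in no-current leaves. SWEET11, the 1 measured vascular marker of 6, was called higher at 0.70 (8.55 to 8.69 against 8.97 to 9.49). Of 2 measured senescence genes of 6, WRKY53 was called higher at 1.79 and SAG29 was at -0.09 (summed 5.14 to 5.22 against 6.33 to 6.49). The 1 measured trichome gene of 4, TRY, was at -0.29 (5.06 to 5.16 against 4.39 to 5.24). Of the 3 photosynthesis genes 1, LHCB4.1, was called lower at -0.23 (12.87 against 12.64 on average). The log2 of the summed level of all 3 ran from 14.36 to 14.42 against 14.21 to 14.24. None of 4 genes of dividing cells was measured. After wounding SWEET11 alone of these markers was called, lower at -0.48 (limma adjusted p = 0.0477). At an unadjusted p under 0.05 were also AT1G22690 at -0.32 and WRKY53 at 0.41 (limma adjusted p = 0.203 and 0.0961). The summed guard cell level ran from 8.55 to 8.73 and the summed senescence level from 5.28 to 5.74 in wounded leaf 13. After current none was called, with TRY at 0.68 the only one at an unadjusted p under 0.05. Their part in the differences of the 96 genes was not tested. Fewer cells of a type and less RNA per cell cannot be told apart in leaf tissue of mixed cells.

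**Figure D5:**
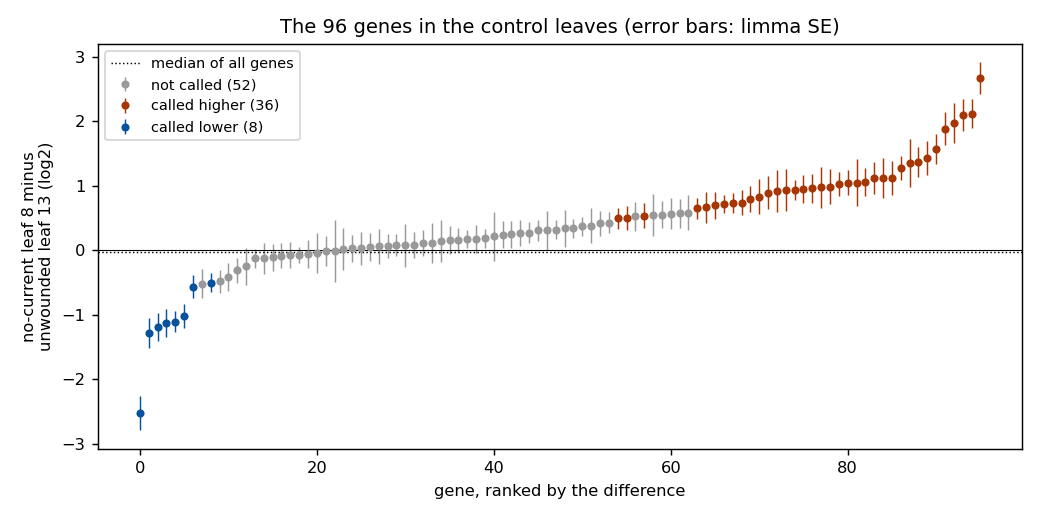
Difference of no-current leaf 8 minus unwounded leaf 13 (log2) for each of the 96 genes, ranked, with limma's SE as error bars, 36 genes called higher, 8 called lower and 52 not called, and the median of all 13356 genes as a dotted line. Most points lie above the line, and MSRB6 is the lowest.

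Relatives of the strongest genes were compared from lists drawn from textbook knowledge. Of 33 listed VQ genes 15 were measured, and AT2G22880 was the 1 that met the rule. Of the other 14, 1 was higher and 2 were lower at an unadjusted p under 0.05 after wounding, and 0 after current. Limma called 1 higher and 1 lower after wounding (5.81% and 8.42% of all genes) and 0 after current (2.38% and 1.58% of all genes). The higher was AT1G80450 at 0.93 (limma adjusted p = 3.93e-04), and AT3G58000 was at -0.31 (limma adjusted p = 0.0416), a call lost after median centring (limma adjusted p = 0.112) and when unwounded array 1 or 2 or any 1 wounded array was dropped (from 0.0507 to 0.147). The median of the 14 was -0.05 after wounding and 0.01 after current. Of 15 listed strictosidine synthase-like genes 6 were measured. Besides AT3G51450, AT3G51440 rose by 2.27 after wounding (limma adjusted p = 1.54e-06) and by 0.96 after current (limma adjusted p = 0.0122), just short of the rule. Its current call was lost when no-current array 1 or 3 or current array 2 was dropped (limma adjusted p = 0.0613, 0.0533 and 0.0581). The other 4 were not called in either comparison, with 0 higher or lower after wounding and 1 higher after current at an unadjusted p under 0.05.

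None of the 52 genes listed for jasmonate synthesis, turnover, JAZ repressors and signalling is among the 96: 10 were measured, and 6 of these met both cuts and are among the 18 left out by name. Measured were 2 of 17 synthesis, 5 of 11 turnover and 3 of 12 signalling genes. Of 12 JAZ repressors 0 were measured, so nothing is shown about their response. Among 7 measured Aux/IAA genes of 32 with such a name, IAA18 was the 1 that met the rule. Of the other 6 limma called IAA29 lower after wounding, where 8.42% of all genes were called lower. After current it called 0 (2.38% and 1.58% of all genes higher and lower), with 0 at an unadjusted p under 0.05. Of 17 genes of the SWEET family 16 were measured and none met the rule, and limma called 3 higher and 3 lower after wounding (5.81% and 8.42% of all genes) and 2 higher, SWEET16 and SWEET17, after current (2.38%).

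Several of the 96 genes lie next to each other. In the order of protein-coding genes of the TAIR10.1 reference, 3 pairs had no other gene between them. AT4G27654 changed by 2.42 and 1.61 and its neighbour AT4G27657 by 1.18 and 1.14, after wounding and current. AT3G17120 changed by 2.56 and 1.18 and AT3G17130 by 1.71 and 1.10, and both stood lower in the wired than in the unwounded leaf, at -1.11 and -0.48, the latter not called. AT2G32140 changed by 1.89 and 1.15 and AT2G32150 by 3.26 and 1.52, from unwounded levels of 2.38 ± 0.20 and 7.94 ± 0.31. In 2 further cases the neighbour was a gene left out by name: AT5G38130 stands beside 4CL8, which changed by 4.54 and 2.22, and AT1G76380 beside PUB43, at 2.95 and 1.07. The 81 other measured neighbours had median changes of 0.07 after wounding and 0.01 after current. Among them 5 stood at least 2-fold higher after wounding, 6.17% against 2.52% of all genes, and 0 after current, against 0.898%. These neighbours hold none of the 114 genes that met both cuts, while the shares of all genes include them, so the shares are not like for like. Of the 120 genes past the current cut 114 met both, so a count at or near 0 after current was nearly fixed in advance.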

How the data were processed

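The 12 arrays were 3 from each of 4 groups of leaves, grouped by their labels. The deposited values are log2 RMA expression values that the authors made using RMA in Affymetrix Power Tools, as named in the submitters' processing notes. The version and the array's probe annotation release are not given in the sources used here, and the log base was read from the value range, 1.46 to 13.3. RMA equalises the intensity distributions between arrays and pulls low values towards a floor, so folds of dim genes can be understated.

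Of 22810 probe sets, 13513 name 1 gene in the platform annotation and give 13356 genes (146 with several probe sets, averaged). The 503 with several genes, 64 controls and 8730 unnamed were not used. Symbols came from RefSeq TAIR10.1, which matched 13334 genes. The files name no genome build, so no coordinates are given.

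Group means were compared with limma 3.58.1 in R 4.3.3 (lmFit and eBayes over all 12 arrays, 1 mean per group, two-sided, Benjamini-Hochberg over all genes, threshold 0.05). SEs are from this fit. The fit was tested on simulated data. The members and lists were chosen with earlier results of these data known. The genes named are the 12 with the highest smaller change, 5 on each side of the cut, the extremes of wound minus current, the 10 largest control differences, every gene with a symbol, listed relatives and neighbours, and the rest once each. The number of arrays limits precision. Alternatives were other scalings, filters on dim genes, weights, a replicate block and leaving out each array.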

Additional observations from a re-analysis of the deposited data

How the results depend on the processing

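The number of genes meeting the rule was 96 with the brightest probe set per gene, 102 with probe sets of several genes, 100 with median centring and 103 with quantile normalization, and all 96 genes were among those of each. Leaving out 1 array in turn gave 70 to 125 genes. The median wound change stayed between 2.51 and 2.72 and the median current change between 1.16 and 1.55. In the control comparison the 36 higher and 8 lower calls became 49 and 11 with the control arrays fitted alone and 29 and 9 with a robust trend, and leaving out 1 control array gave 25 to 31 higher and 6 to 9 lower calls. Leaving out 1 treated array, chosen after seeing the data, gave 32 to 44 and 8 to 9. With the replicate number as a block the counts were 37 and 9. The labels do not tie equal numbers together, and deviations of same-numbered arrays correlated between -0.07 and 0.05, so the numbers were not taken as pairs. Gene by gene, the scalings, filters, weights, block, fit of the control arrays alone and left-out control arrays were followed, and not the left-out treated arrays. Of the 44 called genes, 29 kept their call under each of these in which they were tested and 15 lost it under at least 1, among them JAL23, SRC2, ZW9, AT2G22880 and AT3G51450, and none changed direction under them. The cause was not tested. Of the listed relatives, AT3G51440, AT1G80450 and AT3G58000 were rerun under alternatives chosen after seeing the data. The calls of MSRB3 and MSRB5 in the control comparison were not rerun. With 3 arrays per group, and with many genes at 3 or below on the log2 scale in the controls, small differences could not be resolved.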
